A study of Homo sapiens with 8 samples.

Results

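Of the 64253 genes with counts in this series, 8 were examined here by their symbols: UNG, SMUG1, TDG, MBD4, XRCC1, MSH3, MSH6 and PMS2. They were chosen because their products act on uracil or on 5-fluorouracil (5-FU) in DNA. All 8 were found by their Ensembl identifiers and all 8 were among the 20305 genes that passed the filter on low counts.

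Uracil enters DNA by deamination of cytosine or by use of dUTP in place of dTTP. 5-FU blocks thymidylate synthesis, which raises uracil in DNA, and fluorouracil itself can also be built into DNA. UNG, SMUG1, TDG and MBD4 are DNA glycosylases that cut the base from the sugar, after which base excision repair (BER) closes the gap with XRCC1 as the scaffold of the last steps. Mismatch repair (MMR) also recognises fluorouracil paired with guanine. MSH6 and MSH3 are alternative partners in the complexes that bind mismatches, and PMS2 carries the endonuclease of the complex recruited next.

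RNA-seq was performed on the human colon cancer cell line HCT-8, which is 5-FU-sensitive, and on its 5-FU-resistant counterpart HCT-8/FU. Both lines were grown in unconditioned medium. HCT-8 cells were also grown in conditioned medium (CM) taken after 48 h from HCT-8 itself (the samples labelled CM of HCT-8, called own-CM below) or from the resistant line (labelled CM of HCT-8/FU, called FU-CM below). The 4 groups held 2 replicates each, 8 libraries in all. HCT-8/FU was obtained as an established line, so that a difference from HCT-8 is a difference between 1 pair of lines, and the sources used here do not say whether 5-FU was present while these cells were grown for RNA. No source says that replicates were separate cultures, so the p-values measure only the spread between these libraries.

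The libraries held 5804124 to 34881349 counts on genes. In 3 of them (HCT-8 replicate 1, HCT-8/FU replicate 2 and own-CM replicate 1) 19.96% to 29.6% of the records were not aligned, against 3.58% to 4.43% in the others. The 7 colon epithelial markers (EPCAM, KRT8, KRT18, KRT19, VIL1, CDX2, LGALS4) summed to 8571 to 10780 CPM (counts scaled to a common library size) per library, and 8 markers of leukocytes, fibroblasts and endothelium to 10.4 to 16.3 CPM, with PTPRC, CD3E and COL1A2 at 0 in every library. In bulk samples such as these, fewer cells that express a gene and less RNA per cell cannot be told apart. Log2 fold changes also followed the base composition of genes: across 19857 genes their Spearman correlation with GC content was -0.40 for HCT-8/FU against HCT-8, -0.40 for FU-CM against own-CM, and 0.30 for own-CM against HCT-8. Each fold change of the 8 genes was therefore also computed after a correction for GC content and length.

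All 8 genes lie on different stretches of GRCh38. UNG (chr12:109097597-109126725, plus strand), TDG (chr12:103965822-103988874, plus strand) and SMUG1 (chr12:54121277-54189008, minus strand) are on the same chromosome. MBD4 is at chr3:129430947-129440179 on the minus strand and XRCC1 at chr19:43543311-43580473 on the minus strand. MSH3 is at chr5:80654652-80876815 on the plus strand, MSH6 at chr2:47695530-47810063 on the plus strand and PMS2 at chr7:5970925-6009130 on the minus strand. The GC content of their exons ran from 39.8% in TDG to 57.996% in XRCC1.

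The starts of these genes were searched for letters of the type bound by E2F, the family of factors that drives genes of DNA replication. The letters were TTTGGCGC, TTTGCCGC, TTTCGCGC and TTTCCCGC on both strands, in windows from 250 bases before to 50 bases after each start annotated by RefSeq on GRCh38.p14. Of the 8 genes, 7 had a window (SMUG1 had none), and 4 of these 7 (UNG, MSH3, MSH6 and PMS2) held a match, against 3.99% of 27305 genes with a window. The stretches of 30 bases around the matches in UNG, MSH6 and PMS2 are shown because these genes went different ways below. Each is written 5′ to 3′ on the strand of the gene, with the match in capitals.
UNG, chr12:109098098-109098127, plus strand: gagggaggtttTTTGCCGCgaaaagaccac
MSH6, chr2:47783137-47783166, plus strand: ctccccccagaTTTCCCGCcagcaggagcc
PMS2, chr7:6009131-6009160, minus strand: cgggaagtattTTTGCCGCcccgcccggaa
The match in UNG lies 59 bases before the second of its annotated starts, inside an annotated exon of UNG itself. Of 15 other MMR genes with a window, 4 held a match (EXO1, LIG1, PCNA and RFC3), or 26.7%. So did 1 of 11 genes of the later steps of BER (LIG1 again), 0 of 5 other DNA glycosylases and 2 of 8 proliferation markers. Genes differed in their number of windows, with 4 for MSH6 and 1 for XRCC1. A match of letters is a description and does not show that a factor binds there.

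Levels between genes were compared as CPM per kb of the canonical transcript, averaged over the 8 libraries. UNG was the most abundant at 24.4 CPM per kb, followed by TDG at 13.9, MBD4 at 10.8, XRCC1 at 9.92, MSH6 at 8.99, MSH3 at 6.75, PMS2 at 5.65 and SMUG1 at 5.63. Per kb of all annotated exons UNG stood at 9.49 and TDG at 9.03 CPM per kb, whereas MSH6, whose annotation includes long exons outside the canonical transcript, fell to the last place at 2.16. The order below UNG thus depended on the length used. Counts of single libraries ran from 83 for SMUG1 to 1826 for UNG.

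UNG encodes the main uracil-DNA glycosylase of nuclei and mitochondria. Its normalized levels were 28.0 and 35.8 CPM in the HCT-8 replicates, 57.7 and 59.2 in those of HCT-8/FU, 50.6 and 68.8 in own-CM, and 49.5 and 50.8 in FU-CM. HCT-8 in unconditioned medium was the low group, and its libraries overlapped with those of no other group. UNG was higher in HCT-8/FU than in HCT-8 by 0.83 ± 0.14 on the log2 scale (SE), or 1.78-fold, with an adjusted p of 0.00019 (edgeR's quasi-likelihood test, Benjamini-Hochberg adjustment over all genes tested, as for every adjusted p here). It was also higher in own-CM than in HCT-8, by 0.89 ± 0.14 (edgeR, adjusted p = 0.00034). Both comparisons share the HCT-8 libraries and are not independent of each other.

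**Figure D1:**
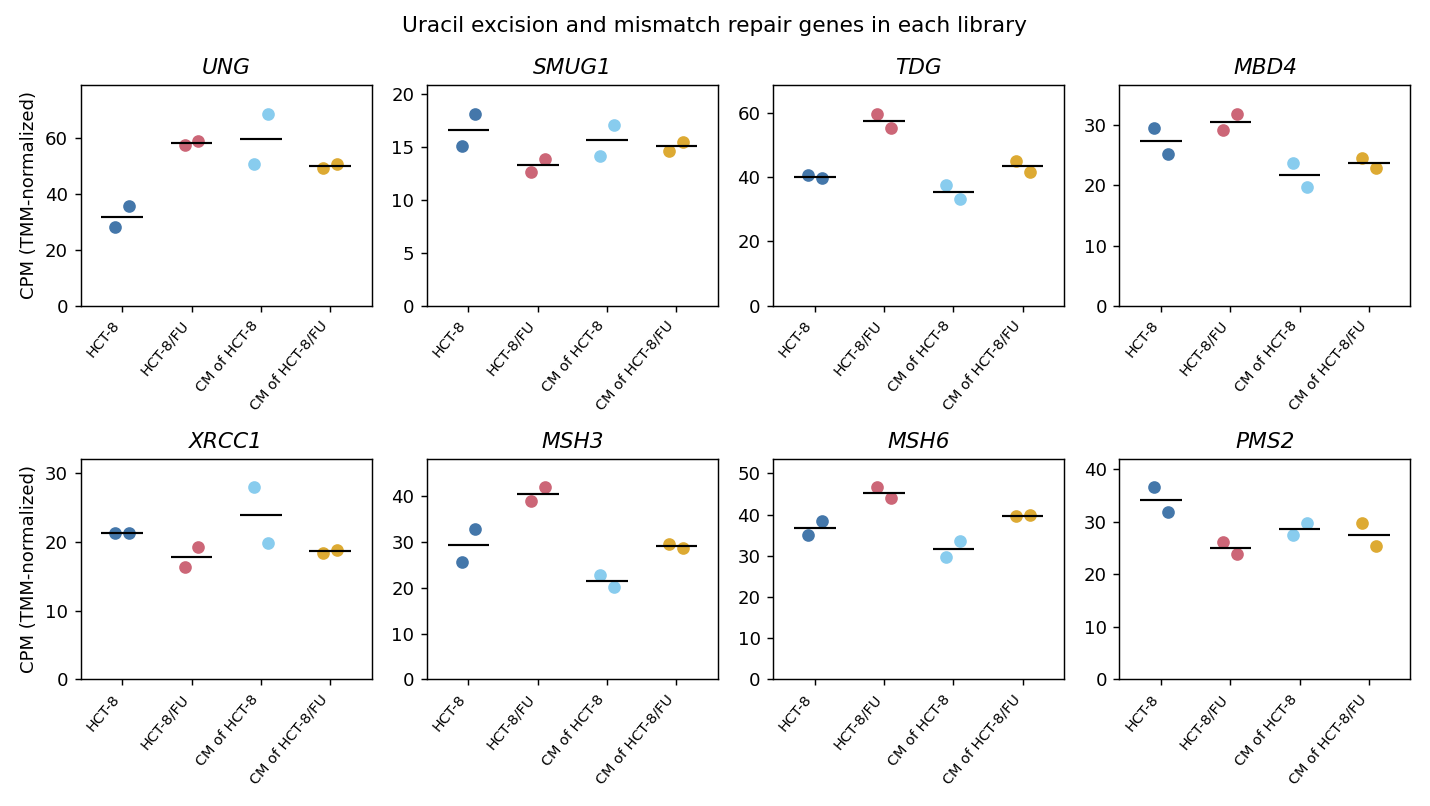
Normalized level (CPM, y axis from 0, scaled per gene) of the 8 genes in each library, with 2 libraries per group as points and their mean as a line. UNG in HCT-8 (28.0 and 35.8 CPM) lies below all 6 other libraries, whereas TDG, MSH3 and MSH6 are highest in HCT-8/FU.

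In cells exposed to CM of the resistant line UNG did not differ by the test. The log2 fold change of FU-CM against own-CM was -0.28, with a 95% confidence interval from -0.55 to -0.0032 (edgeR, adjusted p = 0.15), and the libraries of both groups overlapped. This value rested on the unequal replicates of own-CM: it was -0.46 without replicate 1 (edgeR, adjusted p = 0.0023) and -0.011 without replicate 2 (edgeR, adjusted p = 0.97). The difference between the line and the CM comparisons was itself tested, as an interaction, and came to 1.11 ± 0.19 (edgeR, adjusted p = 0.0012). After the correction for GC content and length UNG kept its values, with 0.91 for HCT-8/FU against HCT-8 (edgeR, adjusted p = 0.00018) and 0.84 for own-CM against HCT-8 (edgeR, adjusted p = 0.0011). Over 20 alternative settings the first ranged from 0.68 to 1.03 and the second from 0.61 to 1.06, and each passed the false discovery rate (FDR) threshold of 0.05 in all 20. The lowest of the first series, 0.68, came without the 3 libraries of high not-aligned share.

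Between HCT-8/FU and HCT-8, UNG was the only one of the 8 genes called differentially expressed (DE), which required an FDR of 0.05 or less and a log2 fold change of 0.58 or more in either direction. Of all genes tested 21.3% were DE in this comparison, 13.2% higher and 8.12% lower. By the FDR alone 5 of the 8 passed, 4 higher (UNG, TDG, MSH3, MSH6) and 1 lower (PMS2), against 36.7% of all genes, 18.6% higher and 18.1% lower. The libraries of the groups did not overlap for 7 of the 8, against 65% of all genes. The median log2 fold change of the 8 was 0.23, beside 0.0082 over all genes tested, and turned to -0.058 with the correction. Without the correction the share of DE members was thus not above that of all genes. With it 2 of the 8 were DE, UNG higher and PMS2 lower. Of the 20305 genes tested, 1481 were then DE and higher and 1615 DE and lower.

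TDG encodes a glycosylase that removes uracil, fluorouracil and thymine opposite guanine. Its levels were 40.5 and 39.8 CPM in the HCT-8 replicates, 59.7 and 55.3 in those of HCT-8/FU, 37.5 and 33.3 in own-CM, and 44.9 and 41.7 in FU-CM. No groups overlapped, with HCT-8/FU highest and own-CM lowest. TDG rose in HCT-8/FU by 0.53 ± 0.099 (log2, SE; edgeR, adjusted p = 0.00058) and in FU-CM against own-CM by 0.30 ± 0.097 (edgeR, adjusted p = 0.040), both under the fold threshold. With the correction for GC content and length these values were 0.078 (edgeR, adjusted p = 0.62) and -0.092 (edgeR, adjusted p = 0.64), and neither passed. TDG has the lowest GC content of the 8 genes. The call in FU-CM was also lost without HCT-8 replicate 1 (0.31), own-CM replicate 2 (0.21), FU-CM replicate 1 (0.25) or FU-CM replicate 2 (0.36), whereas the call in HCT-8/FU held without any 1 library.

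MSH3 was measured at 25.5 and 32.8 CPM in the HCT-8 replicates, 38.8 and 41.8 in those of HCT-8/FU, 22.7 and 20.2 in own-CM, and 29.5 and 28.6 in FU-CM. HCT-8/FU was the high group and own-CM the low group, and the other groups overlapped. MSH3 rose by 0.42 ± 0.12 in HCT-8/FU (edgeR, adjusted p = 0.014) and by 0.46 ± 0.12 in FU-CM against own-CM (edgeR, adjusted p = 0.017). In own-CM it fell against HCT-8, with a log2 fold change of -0.50 ± 0.13 (edgeR, adjusted p = 0.013). The corrected values were 0.10 (edgeR, adjusted p = 0.60), 0.19 (edgeR, adjusted p = 0.43) and -0.38 (edgeR, adjusted p = 0.080), so that all 3 calls were lost. Without 1 library the call in HCT-8/FU was lost for HCT-8 replicate 1 (0.28), HCT-8/FU replicate 1 (0.475) and HCT-8/FU replicate 2 (0.37). The call in FU-CM was lost for own-CM replicate 2 (0.36), FU-CM replicate 1 (0.43) and FU-CM replicate 2 (0.48), and that in own-CM for HCT-8 replicate 2 (-0.34) and own-CM replicate 2 (-0.415).

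MSH6 moved less. It stood at 35.02 and 38.4 CPM in the HCT-8 replicates, 46.6 and 43.96 in those of HCT-8/FU, 29.7 and 33.6 in own-CM, and 39.6 and 39.9 in FU-CM. The groups did not overlap, in the same order as for TDG. The rise was 0.30 ± 0.10 in HCT-8/FU (edgeR, adjusted p = 0.032) and 0.31 ± 0.099 in FU-CM against own-CM (edgeR, adjusted p = 0.036). With the correction both turned, to -0.091 (edgeR, adjusted p = 0.57) and -0.093 (edgeR, adjusted p = 0.65). The call in HCT-8/FU was lost without any 1 library of HCT-8, HCT-8/FU or FU-CM, at 0.23 to 0.35, and the call in FU-CM without own-CM replicate 1 (0.24), FU-CM replicate 1 (0.325) or FU-CM replicate 2 (0.32). Exons of FBXO11 on the other strand cover 22.7% of the annotated exonic bases of MSH6, and exons of all genes on that strand cover 24.2%. Such overlap is 20.0% for XRCC1, 8.32% for MBD4, 5.87% for MSH3 and 2.97% for SMUG1, and 0 for the other members. Exons of genes on the same strand cover 8.16% of the exonic bases of XRCC1, 3.44% for TDG and 2.97% for SMUG1. The sources used here do not say whether the counting used the strand. How reads from shared exons affected the values of these genes, by loss as ambiguous or otherwise, is not known. The overlaps are those of GENCODE 44, whereas the counts were made on Ensembl release 94. FBXO11 itself had a log2 fold change of 0.0056 in HCT-8/FU.

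PMS2 went the other way. Its levels were 36.5 and 31.8 CPM in the HCT-8 replicates, 26.02 and 23.9 in those of HCT-8/FU, 27.5 and 29.6 in own-CM, and 29.7 and 25.3 in FU-CM. HCT-8 was the high group and did not overlap with the others. PMS2 fell in HCT-8/FU with a log2 fold change of -0.42 ± 0.12 (edgeR, adjusted p = 0.014), and with the correction the value became -0.59 (edgeR, adjusted p = 0.0030), past the fold threshold. The uncorrected value missed the FDR without HCT-8 replicate 1 (-0.34) and without HCT-8/FU replicate 2 (-0.38). In FU-CM against own-CM it was -0.063, with a 95% confidence interval from -0.31 to 0.18 (edgeR, adjusted p = 0.77). The genome holds PMS2CL and a family of PMS2 pseudogenes of near-identical sequence. Reads may have been left out as aligned more than once or assigned to a copy, so that the values of PMS2 are uncertain. The annotation also names pseudogenes of UNG (UNGP1 and UNGP3), TDG (TDGP1) and SMUG1 (SMUG1P1), whose share of the reads was not tested.

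**Figure D2:**
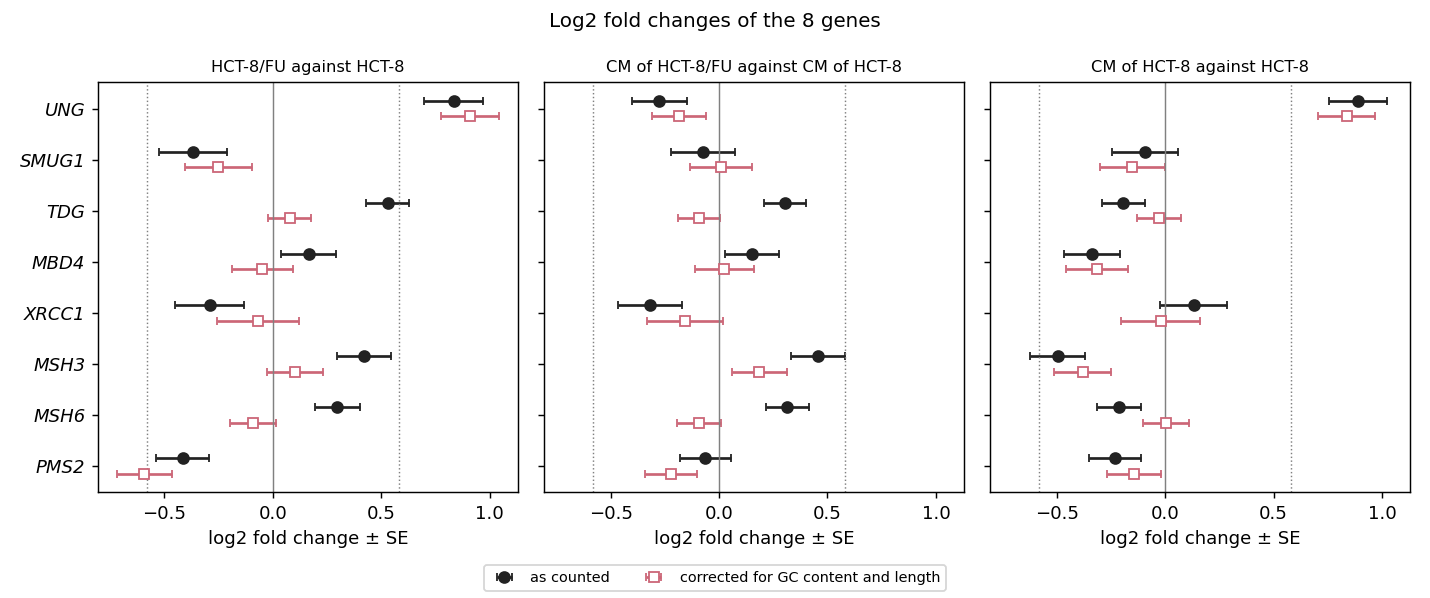
Log2 fold change (x axis, with SE bars) of each gene in 3 comparisons, as counted (filled circles) and after correction for GC content and length (open squares), with the fold threshold of 0.58 as dotted lines. UNG stays at 0.83 and 0.91 in HCT-8/FU against HCT-8, whereas TDG moves from 0.53 to 0.078 and PMS2 from -0.42 to -0.59.

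SMUG1, MBD4 and XRCC1 did not pass the FDR in any comparison. SMUG1, a glycosylase of single-stranded and double-stranded DNA, ranged from 12.6 to 18.1 CPM over the libraries and had a log2 fold change of -0.37 in HCT-8/FU (edgeR, adjusted p = 0.081), with a 95% confidence interval from -0.70 to -0.034. MBD4, a glycosylase with a methyl-CpG-binding domain, ranged from 19.7 to 31.9 CPM and had 0.17, with an interval from -0.11 to 0.44 (edgeR, adjusted p = 0.35). XRCC1 ranged from 16.3 to 27.9 CPM and had -0.29, with an interval from -0.63 to 0.048 (edgeR, adjusted p = 0.18). The log2 fold changes in FU-CM against own-CM were -0.074 for SMUG1 (edgeR, adjusted p = 0.78), 0.15 for MBD4 (edgeR, adjusted p = 0.44) and -0.32 for XRCC1 (edgeR, adjusted p = 0.15). The intervals in HCT-8/FU do not leave out changes of the size seen in MSH3 or PMS2. The highest XRCC1 level, 27.9 CPM, belonged to own-CM replicate 1, a library of high not-aligned share, and its other replicate had 19.9.

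Between the FU-CM and own-CM groups, edgeR called 0 of the 8 genes DE, and DESeq2 also called 0. Of all genes tested 9.25% were DE by edgeR in this comparison, and 7.97% were DE and higher. By the FDR alone 3 of the 8 passed (TDG, MSH3 and MSH6, all higher), against 19.7% of all genes and 11.2% that passed and were higher. An unadjusted edgeR p under 0.05 was found for 5, a count for which the share of all genes was not computed. The libraries did not overlap for 4 of the 8, against 61.4% of all genes. The median of the 8 log2 fold changes was 0.045, beside -0.059 over all genes tested. With the correction for GC content and length the median turned to -0.092 and 0 of the 8 passed the FDR.

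Between own-CM and HCT-8, a comparison of HCT-8 cells with and without CM of their own line, UNG was DE and higher, and 1 more gene, MSH3, passed the FDR alone and was lower. Of all genes tested 8.15% were DE here, 3.86% were DE and higher, and 19.4% passed the FDR alone. The libraries did not overlap for 6 of the 8 genes, against 54.3% of all genes. In the test of the difference between the line and CM comparisons UNG was again the 1 gene of 8 that was DE, against 7.69% of all genes.

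Among 10872 protein-coding genes that averaged 5 CPM or more, those whose log2 CPM followed UNG most closely over the 8 libraries were DUT and PSMG4, each with a Pearson r of 0.989. DUT encodes the dUTPase, which removes dUTP before it can be built into DNA and thus acts one step ahead of UNG. The levels of DUT were 29.2 and 35.6 CPM in the HCT-8 replicates, 55.5 and 57.0 in those of HCT-8/FU, 51.6 and 59.3 in own-CM, and 49.3 and 49.4 in FU-CM. HCT-8 was the low group and overlapped with no other, an order like that of UNG which the choice by r over the same libraries fixed, so that the values are a description with no test. The log2 fold change of DUT was 0.76 in HCT-8/FU, 0.76 in own-CM against HCT-8 and -0.18 in FU-CM against own-CM. With the correction the first of these was under the fold threshold, at 0.545 at the lowest. PSMG4, a proteasome assembly chaperone, had smaller values, 0.29, 0.33 and -0.12 in the same comparisons, and was DE in none of them. Once these values were seen, the search for E2F-type letters was extended to DUT, and 1 of its 4 windows held matches. TTTCCCGC lay on the minus strand 38 bases before the start and is not marked here. TTTGGCGC lay on the plus strand 23 bases before the start, shown here beside that of UNG.
DUT, chr15:48332159-48332188, plus strand: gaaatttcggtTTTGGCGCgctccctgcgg

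Genes that start beside PMS2 and TDG were measured in the same fit. AIMP2, a scaffold of the tRNA synthetase complex, starts 125 bases from PMS2 on the other strand and fell in HCT-8/FU, with a log2 fold change of -0.44 (edgeR, adjusted p = 0.0023), beside -0.42 for PMS2. AIMP2 also fell in FU-CM against own-CM, at -0.37 (edgeR, adjusted p = 0.011), where PMS2 was at -0.063. That value passed the FDR in 12 of 20 alternatives. It was lost with the correction, with or without the block, with edgeR or DESeq2 on the groups compared only, and without HCT-8 replicate 2, own-CM replicate 1, FU-CM replicate 1 or FU-CM replicate 2. UQCC6, which starts 114 bases from TDG, had 0.46 in HCT-8/FU (edgeR, adjusted p = 0.12) and -0.35 in FU-CM against own-CM (edgeR, adjusted p = 0.27).

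**Figure D3:**
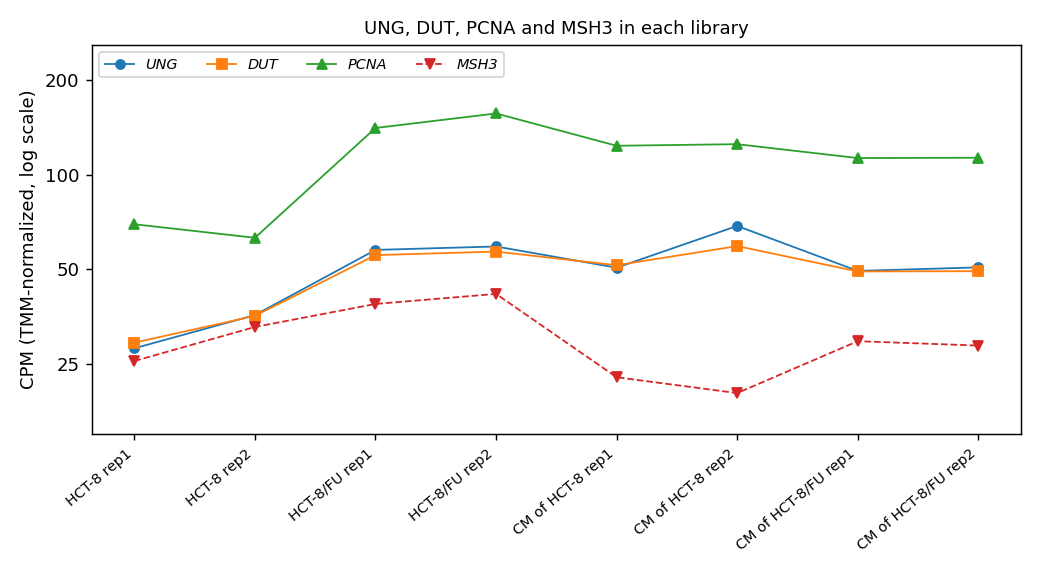
Normalized level (CPM, log scale) of UNG, DUT, PCNA and MSH3 in the 8 libraries, joined by lines only to guide the eye. UNG and DUT, chosen for following UNG, lie close together in every library, and MSH3 in own-CM (20.2 to 22.7 CPM) is below its HCT-8 levels (25.5 and 32.8 CPM).

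Over the 8 libraries the members formed no single pattern. TDG, MSH3 and MSH6 went together (Pearson r of log2 CPM 0.910 for TDG and MSH3, 0.894 for MSH3 and MSH6, and 0.866 for TDG and MSH6). MBD4 also went with TDG (r = 0.788) and MSH3 (r = 0.769), and less with MSH6 (r = 0.563). XRCC1 ran opposite to MSH6 (r = -0.869) and UNG opposite to PMS2 (r = -0.762). These 8 points share libraries, depth and the trend with GC content, in which TDG (39.8%), MSH3 (41.8%) and MSH6 (42.4%) are the 3 genes of lowest GC content and XRCC1 is the highest, and no p-value is given.

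Other genes of these pathways were described by list. The share of DE genes among all tested was 21.3% in HCT-8/FU against HCT-8. Of 13 genes of the later steps of BER, 1 was DE and higher in HCT-8/FU (APLF, 2.26-fold) and 2 were DE and lower (POLL, -0.74, a polymerase of short gaps, and LIG3, -0.59, the ligase that works with XRCC1). Their median was -0.15. APLF, which binds poly(ADP-ribose) at breaks, had only 6 to 133 counts per library. Its call was lost without HCT-8 replicate 1, without HCT-8/FU replicate 1 and with the GC correction, where its value was 0.86 (edgeR, adjusted p = 0.11). LIG3 fell short of the fold threshold in 6 of 20 alternatives, among them the fits without replicate 1 of HCT-8 and without replicate 2 of HCT-8/FU, but passed the FDR in all 20 with -0.50 to -0.70. With the correction 1481 of the 20305 genes tested were DE and higher in HCT-8/FU and 1615 DE and lower. POLL was then -0.53 (edgeR, adjusted p = 0.0055), under the fold threshold, and 4 of the 13 were DE. Of these LIG3 was DE in both fits. The polymerase POLB (-0.66; edgeR, adjusted p = 0.0030) and APTX, which removes AMP from aborted ligations (-0.70; edgeR, adjusted p = 0.00078), became DE and lower, and the ligase LIG1 (0.59; edgeR, adjusted p = 0.017) DE and higher. The median moved to -0.28. In FU-CM against own-CM 0 of the 13 were DE by edgeR, against 9.25% of all genes, and 0 by DESeq2. By the FDR alone 1 passed and was higher and 2 passed and were lower, against 19.7% of all genes. An unadjusted edgeR p under 0.05 was found for 8, without a share of all genes to compare.

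Of 6 other DNA glycosylases, only NEIL3, which acts on oxidised bases and is expressed in dividing cells, was DE in HCT-8/FU, at 1.42 ± 0.30 (edgeR, adjusted p = 0.0017). It had 20 to 210 counts per library, and its call was lost without HCT-8 replicate 2 or without HCT-8/FU replicate 1. NEIL2 had the lowest value, -0.57 (edgeR, adjusted p = 0.011), just under the fold threshold. The share of DE genes among all tested was 21.3% here. In FU-CM against own-CM 0 of the 6 were DE by edgeR, against 9.25% of all genes, and 0 by DESeq2. By the FDR alone 3 passed, all lower, against 19.7% of all genes. An unadjusted edgeR p under 0.05 was also found for 3, without a share of all genes to compare.

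The 18 other MMR genes, which serve the excision and resynthesis steps and in part also DNA replication, gave more calls. Among all genes tested the share of DE genes was 21.3% in HCT-8/FU and 8.15% in own-CM against HCT-8. HMGB1 and PCNA have processed copies in the genome, so that reads may have been left out as aligned more than once or assigned to a copy. In HCT-8/FU 8 were DE and higher (RFC3, EXO1, PCNA, HMGB1, MLH3, RFC1, POLD3 and RPA3) and 1 was DE and lower (POLD4, -0.74), with a median of 0.50. RFC3, a subunit of the clamp loader, had the largest uncorrected value, 1.54 ± 0.15 (edgeR, adjusted p = 1.4e-06), and EXO1, the exonuclease of MMR, had 1.44 ± 0.14 (edgeR, adjusted p = 1.7e-06). With the correction EXO1 (1.298) and PCNA (1.07) stood above RFC3 (1.05). PCNA, the sliding clamp, went from 69.6 and 63.1 CPM in the HCT-8 replicates up to 141.1 and 156.9 in HCT-8/FU, and had 123.8 and 125.3 in own-CM and 113.2 and 113.4 in FU-CM. Like UNG, it was lowest in HCT-8 with no overlap, and its log2 fold change was 1.17 in HCT-8/FU (edgeR, adjusted p = 9.6e-08) and 0.92 in own-CM against HCT-8 (edgeR, adjusted p = 5.3e-06). POLD4 was no longer DE without HCT-8 replicate 2, without HCT-8/FU replicate 2 or with the correction, RFC1 with the correction (0.51), and RPA3 without HCT-8/FU replicate 2 or with the correction. In own-CM against HCT-8, 6 of the 18 were DE, all higher (PCNA, RFC3, EXO1, RFC2, LIG1 and HMGB1), of which EXO1 and LIG1 were lost without HCT-8 replicate 2 and HMGB1 without that library or own-CM replicate 1.

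Between the FU-CM and own-CM groups, 2 of these 18 genes were DE, both higher, against 9.25% of all genes. The median of the 18 was -0.16. They were MLH3, a relative of PMS2, at 0.84 ± 0.13 (edgeR, adjusted p = 0.00028) and RFC1, the large subunit of the clamp loader, at 0.92 ± 0.12 (edgeR, adjusted p = 4.9e-05). MLH3 stood at 17.0 and 14.3 CPM in the HCT-8 replicates, 33.7 and 32.4 in those of HCT-8/FU, 13.7 and 14.4 in own-CM, and 27.2 and 23.2 in FU-CM. Both genes were also DE and higher in HCT-8/FU. With the correction MLH3 in the CM comparison was 0.50 (edgeR, adjusted p = 0.027), under the fold threshold, and RFC1 was 0.60 (edgeR, adjusted p = 0.0061), still past it.

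**Figure D4:**
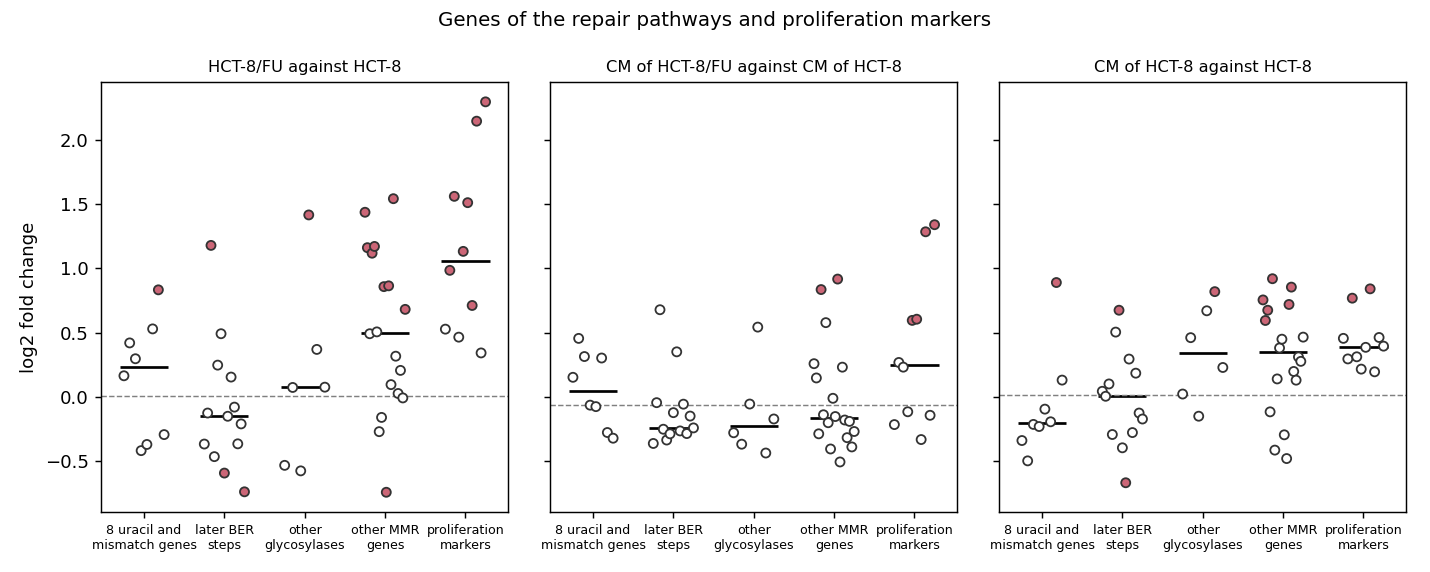
Log2 fold change (y axis) of each gene of the 5 lists in 3 comparisons, with DE genes filled, the median of a list as a line and the median of all genes tested as a dashed line. The other MMR genes have a median of 0.50 in HCT-8/FU against HCT-8 and of -0.16 in FU-CM against own-CM.

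Proliferation markers moved with several of these groups. Of 10 such genes (MKI67, TOP2A, CCNB1, CCNA2, CDK1, AURKA, PLK1, CCNE2, BUB1, MCM2) 7 were DE and higher in HCT-8/FU, 4 in FU-CM against own-CM, and 2 in own-CM against HCT-8. The shares of all genes that were DE and higher were 13.2%, 7.97% and 3.86%. The summed levels below are those of the 10 markers. Summed, they stood at 448 and 425 CPM in the HCT-8 replicates, 1180 and 1306 in those of HCT-8/FU, 656 and 551 in own-CM, and 884 and 889 in FU-CM. With the correction for GC content and length 6, 2 and 4 of the markers were DE, all higher. Of the 20305 genes tested, 1481, 550 and 557 were then DE and higher. The median of the markers in FU-CM against own-CM went from 0.25 to -0.016. HCT-8 was the low group of the summed level too. The higher sum in FU-CM than in own-CM came from MKI67 and TOP2A. Without these, in a sum chosen after the values were seen, the other 8 markers had 277 and 262 CPM in the HCT-8 replicates, 422 and 515 in those of HCT-8/FU, 406 and 387 in own-CM, and 379 and 379 in FU-CM, so that FU-CM lay below own-CM. MCM2 had the highest level in that sum, with means of 148.0 CPM in own-CM and 117.7 in FU-CM. The means of AURKA, CCNB1 and PLK1 were also lower in FU-CM, whereas those of CDK1, CCNE2, BUB1 and CCNA2 were higher. The part of proliferation in the values of UNG, DUT, PCNA and EXO1 was not tested.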

How the data were processed

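RNA-seq was analysed in 8 libraries of 4 groups, named by the sample titles. The authors aligned paired reads of 150 bases to GRCh38 with HISAT2, sorted them with SAMtools 1.18 and counted them per gene with HTSeq 0.11.2 on Ensembl release 94, and the deposited values are raw counts per gene without normalization. Lines that name no gene were left out of library sizes: between 33.7% and 49.6% of a library's records lay on no feature, 3.58% to 29.6% were not aligned, 2.24% to 3.48% were aligned more than once, 2.20% to 5.77% were of low quality and 1.15% to 1.57% were ambiguous. The deposited DESeq2 tables hold the authors' own fold changes, p-values and statistics and were not used. Symbols, positions and lengths came from GENCODE 44 of the same build, which held 56105 of the 64253 identifiers, and promoter windows from RefSeq.

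Counts were fitted in R 4.3.3 with edgeR 4.0.16 (TMM, filterByExpr, group means of all 8 libraries, quasi-likelihood test, Benjamini-Hochberg adjustment over 20305 genes). Each SE is the size of the log2 fold change over the square root of F. DE required an FDR of 0.05 or less and a log2 fold change of 0.58 or more in either direction. DESeq2 1.42.0 was an alternative, as were other filters and scalings, a replicate block, leaving out each library (the lone library of its group then being assumed to vary like the other groups), and a spline with 5 degrees of freedom on GC content and length, which removes any change that follows them, whatever its origin. The fits were tested on simulated data. The median chi-square between replicates was 1.04 to 1.86, above the 0.455 of sampling noise, so all libraries were kept as separate samples. Permutation of 2 against 2 libraries cannot reach 0.05 and was not used.

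The 8 genes and the lists were chosen with earlier results of these data known. Named by rule were the 8 genes, list genes DE in both main comparisons or with the largest or smallest value, neighbours that overlap a member or start within 1000 bases on the other strand, and the 2 genes most alike to each DE member. Neighbours of MSH3 are not reported here. PCNA, EXO1, LIG3 and the remaining DE genes of the lists were named after their values were seen.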

Additional observations from a re-analysis of the deposited data

Results flagged for a closer look

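UNG was singled out because its change between the lines and its change between the CM groups differed by the test of the difference itself. The difference was 1.11 on the log2 scale (edgeR, adjusted p = 0.0012), from 0.83 in HCT-8/FU against HCT-8 and -0.28 in FU-CM against own-CM. The libraries of HCT-8 had 28.0 and 35.8 CPM, and each of the 6 others had at least 49.5 CPM. The difference passed the FDR in all 18 alternatives that could give it, with values from 0.82 to 1.26. The lowest came without own-CM replicate 2. The difference contains the HCT-8 group as a control and also contains the rise of UNG in own-CM.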

How the results depend on the processing

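Of 624 values of the 8 genes under the alternatives, 566 kept their direction and their side of the thresholds, 51 turned in sign and 7 became DE.
The correction for GC content and length turned MBD4 (-0.050) and MSH6 (-0.091) in HCT-8/FU, SMUG1 (0.0086), TDG (-0.092) and MSH6 (-0.093) in FU-CM against own-CM, XRCC1 (-0.021) and MSH6 (0.0044) in own-CM against HCT-8, and MBD4 (-0.075) and MSH6 (0.0016) in the difference. Together with the replicate block the same values were -0.064, -0.079, 0.026, -0.096, -0.086, -0.028, 0.0041, -0.082 and 0.0072.
In FU-CM against own-CM, SMUG1 was 0.011 and PMS2 0.025 with edgeR on the groups compared only, and 0.011 and 0.022 when TMM took own-CM replicate 2 as its reference. Leaving out 1 library gave -0.18 to 0.090 for SMUG1 and -0.18 to 0.052 for PMS2 there, and -0.26 to 0.0024 for SMUG1 and -0.096 to 0.39 for XRCC1 in own-CM against HCT-8.
In the difference it gave -0.21 to 0.15 for MBD4, -0.22 to 0.27 for XRCC1, -0.18 to 0.10 for MSH3 and -0.14 to 0.044 for MSH6. Also in the difference MBD4 was -0.017 with DESeq2 size factors, -0.040 without a filter, -0.012 with DESeq2, -0.072 with a term for the 3 libraries of high not-aligned share and -0.069 without them. XRCC1 was -0.024 without a filter, -0.097 with that term and -0.30 without those libraries, and MSH6 was 0.035 and 0.030 in the last 2 settings. Without those libraries XRCC1 was -0.096 in own-CM against HCT-8. Leaving them out was chosen after seeing the data.

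DE members in HCT-8/FU numbered 2 in place of 1 with the correction, with or without the block (the added gene being PMS2), with the other TMM reference and without the 3 libraries, 1 to 2 when 1 library was left out, and 5 by the FDR alone. There were 3 by the FDR alone in place of 0 in FU-CM against own-CM. In own-CM against HCT-8 there were 2 in place of 1 by the FDR alone and without the 3 libraries, and 1 to 2 when 1 library was left out. Later BER genes numbered 7 by the FDR alone in place of 3 in HCT-8/FU, and 3 by the FDR alone or 1 without the 3 libraries in place of 0 in FU-CM against own-CM. Other glycosylases numbered 2 in place of 1 in HCT-8/FU without a filter, with DESeq2 on the groups compared, with the correction, with the correction and the block, and with the term, 3 by the FDR alone, and 0 to 2 when 1 library was left out. In FU-CM against own-CM there were 3 by the FDR alone and 0 to 1 when 1 library was left out, in place of 0. Other MMR genes numbered 1 with the correction, with or without the block, and 7 by the FDR alone, in place of 2. The cause of these shifts was not tested, except that the FDR alone drops the fold threshold. With the correction, 1481 of the 20305 genes tested were DE and higher in HCT-8/FU and 1615 DE and lower. In FU-CM against own-CM those numbers were 550 and 432.

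Calls by the FDR in HCT-8/FU held in 18 of 20 alternatives for TDG, 16 for PMS2, 14 for MSH3 and 9 for MSH6. In FU-CM against own-CM they held in 13 for TDG, 15 for MSH3 and 13 for MSH6, and in own-CM against HCT-8 in 14 for MSH3. The replicate numbers do not pair the libraries by the labels, and the deviations of same-numbered libraries correlated at -0.086 for HCT-8 and HCT-8/FU, at -0.028 for own-CM and FU-CM and at 0.13 for HCT-8 and own-CM. With a replicate block and no correction UNG was 0.88 in HCT-8/FU (edgeR, adjusted p = 3.3e-05), and no member changed its DE call. Of all DE genes in HCT-8/FU, 61.9% were higher, against 47.8% with the correction and 72.6% with the other TMM reference, and in FU-CM against own-CM 86.2% were higher, against 56.0% with the correction. The shallowest library, HCT-8/FU replicate 2 with 5804124 counts on genes, limits the precision for genes of low counts. Of the 8 genes SMUG1 had the lowest count there, 83. Some genes of the lists had fewer in a single library, such as APLF (6), NEIL3 (20), POLD4 (36), RFC3 (53) and NEIL2 (58).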
